A study of Homo sapiens with 6 samples.

Results

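The chaperonin TRiC, also called CCT, was examined through the mRNA of its 8 subunit genes: TCP1, CCT2, CCT3, CCT4, CCT5, CCT6A, CCT7 and CCT8. These genes were chosen by name as the subunits of the complex, although earlier results of these data were known. They are 8 of the 56303 gene symbols in the count table. RNA-seq was performed on SW480, a cell line from a human colon adenocarcinoma, to learn how depletion of the splicing factor RBM39 alters expression and splicing. Lentivirus carried either a nonsilencing hairpin (shCtrl, genotype WT in the labels) or one that targets RBM39 (shRBM39, genotype RBM39 knockdown), and puromycin then selected what the study calls stable clonal lines. There were 3 libraries per group, 6 in all, and no other treatment was given. The labels name 1 hairpin per group, so an effect of RBM39 depletion and one of the hairpin or the selected line cannot be told apart. Methods speak of replicate experiments but the labels name no separate cultures, and the p-values measure the spread between these libraries.

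CCT is a cytosolic folding machine made of a pair of stacked rings, in which each ring holds 1 copy of each of the 8 related subunits around a central chamber. Newly made actin and tubulin are its best known clients and cannot fold without it; cell cycle regulators with WD40 repeats and G protein beta subunits are folded there as well. ATP binding and hydrolysis close and open the chamber. The prefoldin complex hands over unfolded chains, phosducin-like proteins bind the ring as cofactors, and tubulin folding cofactors take over tubulin after its release.

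All 8 subunit mRNAs were higher in shRBM39 than in shCtrl. The rise ran from 31.7% for CCT3 to 58.2% for CCT2, the 3 shRBM39 libraries lay above the 3 shCtrl libraries for each gene, and each had an adjusted p under 0.05. As background, 29.2% of all 18243 tested genes were called higher and 29.9% lower by the same rule, and in 31.0% every shRBM39 library lay above every shCtrl library. Highly expressed genes rose more often. Among the 884 tested genes with a mean level at least that of the lowest subunit, 59.2% were called higher. The median log2 fold change of the 8 subunits was 0.58, against -0.01 over all tested genes and 0.18 over those 884.

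The genes lie apart in the genome, on 7 chromosomes. By the coordinates of the count table (GRCh38), TCP1, which encodes the alpha subunit, spans chr6:159778498-159789749 on the minus strand. CCT2, for the beta subunit, spans chr12:69585334-69601570 on the plus strand, and CCT3, for the gamma subunit, chr1:156308968-156367873 on the minus strand. CCT4, for the delta subunit, spans chr2:61868089-61888804 on the minus strand, and CCT7, for the eta subunit, lies on the plus strand of the same chromosome at chr2:73233420-73253021. CCT5, for the epsilon subunit, spans chr5:10249921-10266412 and CCT6A, for a zeta subunit, chr7:56051630-56063989, both on the plus strand. CCT8, for the theta subunit, spans chr21:29055805-29073797 on the minus strand. In GENCODE v44 their canonical transcripts have 11 to 16 exons and coding lengths from 1593 bases for CCT6A to 1668 bases for TCP1, so the encoded proteins are close in size, at 531 to 556 residues.

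The promoters of 3 subunits are shown because these genes bound the range of the rise: CCT2 and TCP1 rose most and CCT3 least. Each is the RefSeq window (GRCh38.p14) from 250 bases before to 50 bases after the start, read in the direction of the gene, and 7 of the 8 genes had such a window. Capitals mark 2 motifs on either strand. The first is CCAAT, the box bound by the factor NF-Y, which reads ATTGG on the other strand. The second is CCGGAA, a core bound by ETS factors, and TTCCGG is its reverse complement.
CCT2 (chr12:69585209-69585508, plus strand): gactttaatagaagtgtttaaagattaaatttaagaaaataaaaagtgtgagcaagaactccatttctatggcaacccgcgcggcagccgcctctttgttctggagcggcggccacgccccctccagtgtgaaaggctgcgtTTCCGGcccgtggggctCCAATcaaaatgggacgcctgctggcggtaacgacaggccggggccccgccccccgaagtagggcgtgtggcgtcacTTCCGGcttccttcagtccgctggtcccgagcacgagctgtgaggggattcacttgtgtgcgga
TCP1 (chr6:159789553-159789852, minus strand): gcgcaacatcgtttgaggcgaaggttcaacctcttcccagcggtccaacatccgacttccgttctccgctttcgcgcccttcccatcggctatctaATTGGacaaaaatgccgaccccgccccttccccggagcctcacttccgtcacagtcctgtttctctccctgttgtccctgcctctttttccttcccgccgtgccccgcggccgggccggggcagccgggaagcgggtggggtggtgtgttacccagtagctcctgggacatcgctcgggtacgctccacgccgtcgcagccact
CCT3 (chr1:156338243-156338542, minus strand): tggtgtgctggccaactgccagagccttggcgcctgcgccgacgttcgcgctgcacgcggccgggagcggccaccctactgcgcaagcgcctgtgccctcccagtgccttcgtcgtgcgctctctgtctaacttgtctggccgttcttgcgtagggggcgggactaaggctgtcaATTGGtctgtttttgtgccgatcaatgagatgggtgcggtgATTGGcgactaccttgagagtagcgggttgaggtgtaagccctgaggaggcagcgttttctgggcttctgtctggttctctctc

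CCAAT stood once in the CCT2 window shown, once in the TCP1 window and at 2 places in the CCT3 window. The other CCT2 window held none, and a relation of the motifs to the rise was not tested. Counted over both strands, CCAAT was in a window of 4 of the 7 genes (CCT2, CCT3, CCT8 and TCP1), and in 34.6% of all 35116 promoter windows. CCGGAA was in windows of CCT2 and CCT5, 2 of the 7, against 17.2% of all windows. The heat shock element core GAANNTTC was in windows of CCT2 and TCP1, against 6.77% of all windows. The GC box GGGCGG was in windows of 5 of the 7 genes, against 45.0%, and CGCGAG was in windows of 4, against 15.8%. The E-box CACGTG, to which MYC and MAX bind, was in none of the 7 and in 7.26% of all windows. No base of these windows belonged to more than 1 of the 6 motifs. CCT2 and CCT4 had 2 windows each, for alternative starts, so a count by gene is not like the background, which is by window. Of the 9 windows of the 7 genes, 4 held CCAAT, 2 CCGGAA, 2 GAANNTTC, 6 GGGCGG, 5 CGCGAG and none CACGTG. The motifs describe letters only.

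The libraries held 18042924 to 20428901 counts. RBM39 itself was lower in the libraries labelled shRBM39, with 278 ± 13.3 CPM and a control level of 441 ± 6.53 CPM (SD, n = 3), which is -0.67 on the log2 scale. CPM (counts scaled to a common library size) were adjusted between libraries by TMM, and a log2 difference is always shRBM39 relative to shCtrl with its standard error (SE) from edgeR. The cells carried the keratins of simple epithelium at high level (KRT8 at 6924 CPM in shCtrl), and KRT18, KRT19, EPCAM and VIL1 also had at least 10111 counts in each library, whereas KRT20 had 3 to 25 counts and the intestinal factor CDX2 fell from 21.7 to 4.95 CPM. The 8 epithelial markers summed to 11721 to 12549 CPM in shCtrl and 14775 to 15349 CPM in shRBM39, a sum to which KRT8 gave most (9309 CPM in shRBM39). As single genes, 3 were called higher (KRT8, KRT18, KRT20), 3 lower and 2 not called, and those called lower were CDX2, the adhesion gene CDH1 at -0.39 (edgeR adjusted p 1.03e-09) and VIL1 at -0.09 (edgeR adjusted p 0.0298), the last a call lost without replicate 1 or 3 of either group (-0.07 to -0.09). The leukocyte marker PTPRC had no count, and the 5 leukocyte markers summed to 1.13 to 2.08 CPM in shCtrl and 2.32 to 3.11 CPM in shRBM39. Of these only LYZ, at 19 to 55 counts in a library, could be tested. It was called higher at 1.03 (edgeR adjusted p 0.000101). The 7 fibroblast and endothelial markers summed to 9.23 to 10.3 CPM in shCtrl and 14.8 to 18.7 CPM in shRBM39, with DCN at or near 0. All 3 that could be tested were called higher, against 29.2% of all tested genes. They were COL1A1 at 0.81, PECAM1 at 0.79 and VWF at 1.39 (edgeR adjusted p 8.04e-08, 7.49e-06 and 7.64e-05). Counts in a library were 110 to 208 for COL1A1 but only 10 to 34 for VWF. The part of these differences in the results was not tested. In bulk RNA, a change in the number of cells of a kind and in RNA per cell cannot be told apart.

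CCT7, the subunit with the highest level per length, had 560, 536 and 551 CPM in shCtrl replicates 1, 2 and 3 and 824, 842 and 821 CPM in shRBM39 replicates 1, 2 and 3. The groups stood well apart, with little spread within either. The log2 difference was 0.59 ± 0.04 (SE; quasi-likelihood test of edgeR, Benjamini-Hochberg adjusted p 5.74e-16). CCT3, the next most abundant per length, had 512, 485 and 493 CPM in shCtrl and 645, 663 and 654 CPM in shRBM39. The groups did not overlap, but the step between them was the smallest of the 8, 0.40 ± 0.04 log2 units (SE; edgeR adjusted p 1.9e-11).

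CCT2 had 158, 148 and 154 CPM in shCtrl and 232, 244 and 252 CPM in shRBM39. Every knockdown library was above every control library, and its log2 difference of 0.66 ± 0.04 (SE) was the largest of the 8 (edgeR adjusted p 3.02e-16). TCP1, the founding member of the family, had 147, 154 and 154 CPM in shCtrl and 235, 232 and 243 CPM in shRBM39. The values within each group were close and the groups did not overlap, and the log2 difference was 0.64 ± 0.04 (SE; edgeR adjusted p 2.57e-16).

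CCT5 had 449, 408 and 409 CPM in shCtrl and 618, 626 and 635 CPM in shRBM39. Replicate 1 was the high control, and all 3 knockdown libraries were still well above it, with a log2 difference of 0.57 ± 0.04 (SE; edgeR adjusted p 1.14e-14). CCT6A had 305, 307 and 302 CPM in shCtrl and 443, 446 and 481 CPM in shRBM39. The controls were nearly level and shRBM39 replicate 3 was the highest, and the log2 difference was 0.59 ± 0.04 (SE; edgeR adjusted p 3.13e-15).

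CCT4 had 185, 185 and 196 CPM in shCtrl and 260, 265 and 278 CPM in shRBM39. The groups did not overlap, and the log2 difference was 0.51 ± 0.04 (SE; edgeR adjusted p 1.91e-13). CCT8 had 276, 276 and 282 CPM in shCtrl and 355, 378 and 427 CPM in shRBM39. It was the most uneven of the 8 in the knockdown group, where the SD was 36.4 CPM around a mean of 387, against 3.59 CPM around 278 in shCtrl. Its log2 difference was 0.47 ± 0.04 (SE; edgeR adjusted p 3.56e-11).

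**Figure D1:**
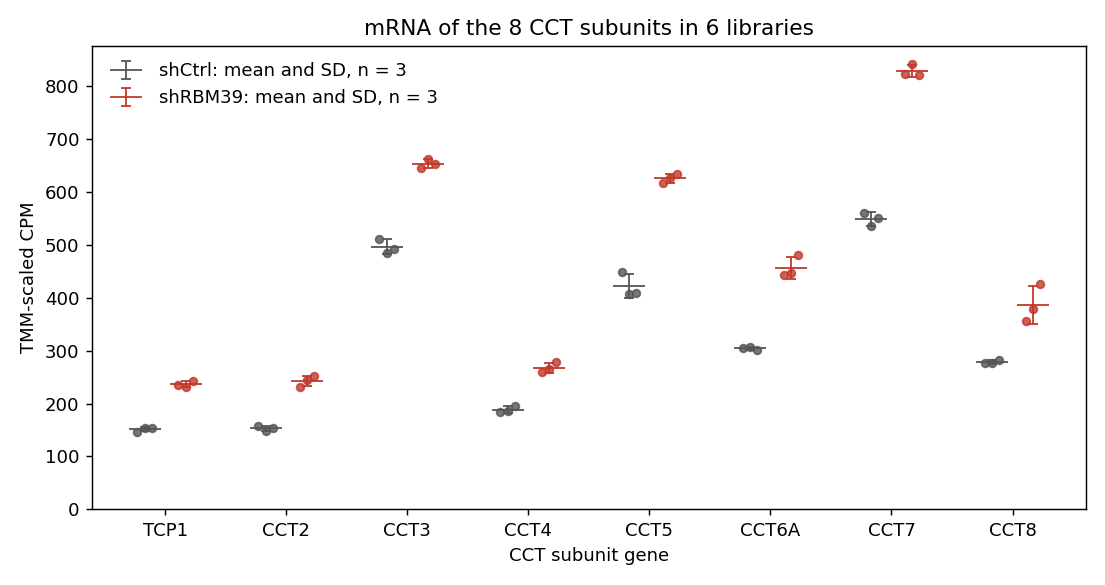
TMM-scaled CPM (vertical axis) of each of the 8 CCT subunit genes (horizontal axis) in the 3 shCtrl libraries (grey) and the 3 shRBM39 libraries (red), with the group mean and SD. For every gene all red points lie above all grey points, and CCT8 has the widest red spread, 355 to 427 CPM.

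Ordered by the size of the rise, the subunits ran CCT2, TCP1, CCT7, CCT6A, CCT5, CCT4, CCT8 and CCT3. The 95% intervals (normal approximation from the SE) overlapped between every pair of neighbours in this order, so the order of neighbours was not resolved. The ends were apart, at 0.58 to 0.74 for CCT2 and 0.33 to 0.47 for CCT3. Of all tested genes, 6.92% had a larger log2 fold change than CCT2 and 17.6% a larger one than CCT3. Among the 884 genes expressed at least as highly as the lowest subunit, these shares were 10.2% and 31.1%.

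Summed over the 8 genes, CCT mRNA was at 2591, 2499 and 2541 CPM in shCtrl and 3612, 3695 and 3791 CPM in shRBM39. The control sums differed little among themselves and lay far below the knockdown sums, which were 45.4% higher on average. The exact two-sided permutation test gave p = 0.1 for this sum (3 against 3 libraries), which is the smallest value that this design allows. As a share of all counts and with no scaling between libraries, the 8 genes took 0.265 ± 0.00258% in shCtrl and 0.354 ± 0.00832% in shRBM39 (SD, n = 3). The rise of this share was 33.5%. The fold change thus depended on the scaling, and library totals alone gave a median log2 fold change of 0.45 for the 8 subunits. The median over all genes moved by as much, from -0.01 to -0.14. Relative to the median gene, the subunits were higher by 0.59 under either scaling, as a change of scaling shifts all genes nearly alike. The equal values are therefore no test of the rise. Of all genes called, 49.4% were higher with TMM and 33.9% with library totals alone, and among the 884 abundant genes 59.2% and 47.9% were called higher, while all 8 subunits were called higher under both.

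Levels were compared between subunits per length, as the deposited RPKM (CPM from library totals, divided by the kilobases of merged exons). In shCtrl the order was CCT7 (156.5 to 161.0 RPKM over 3 libraries), CCT3 (126.7 to 131.4), CCT8 (85.2 to 88.4), CCT6A (80.7 to 82.6), CCT5 (73.3 to 79.2), CCT4 (67.3 to 72.4), CCT2 (36.0 to 37.7) and TCP1 (30.8 to 32.8). The ranges of neighbours in this order did not overlap, although the protein ring holds the subunits in equal number. The mRNA level of CCT7 was 4.96 times that of TCP1. All 8 were among the more abundant mRNAs of the cells, since 1.5% of tested genes had a higher RPKM in shCtrl than CCT7 and 8.34% a higher one than TCP1.

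Part of this order rested on the length used. The merged exons of CCT5 span 5839 bases and its canonical transcript 3293, and for CCT2 the lengths are 4322 and 1916 bases. Per kilobase of the canonical transcript, CCT5 (130 to 141 on the RPKM scale) stood above CCT6A (122 to 125). CCT2 (81.1 to 84.9) and CCT4 (80.1 to 86.2) could not be ranked, as their ranges overlapped. CCT7 and CCT3 remained the highest and TCP1 the lowest under both lengths, and the ratio of CCT7 to TCP1 was then 4.60.

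**Figure D2:**
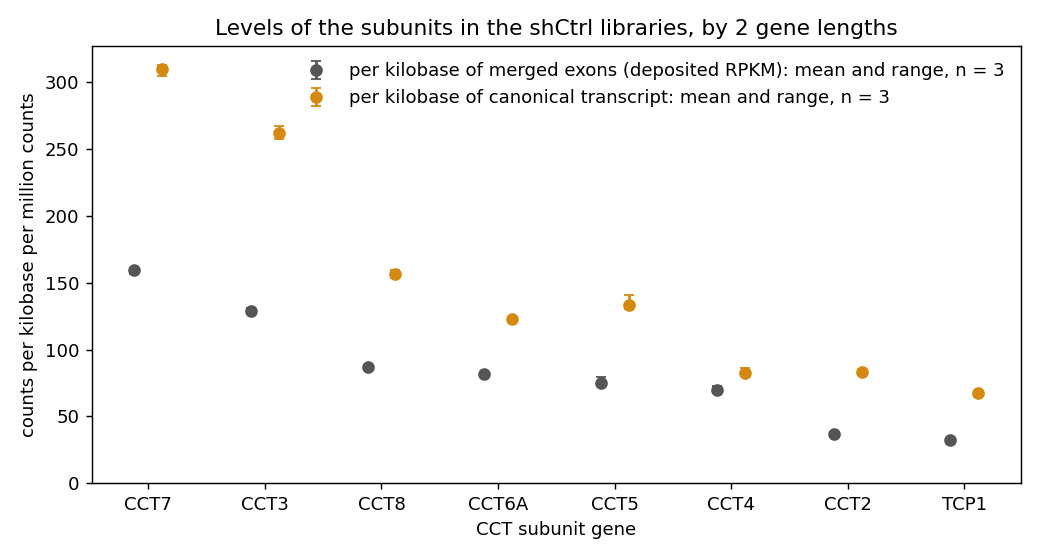
Level of each CCT subunit mRNA in the 3 shCtrl libraries, on the RPKM scale, with length taken from the merged exons (grey, the deposited RPKM) or from the canonical transcript (orange); points are means and bars the range. CCT7 and CCT3 lead and TCP1 is lowest by either length, and CCT5 and CCT6A change places.

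The share of each subunit in the summed RPKM of the 8 does not depend on the scaling of a library, and it was used to see which subunits rose more or less than the complex as a whole. CCT3 took 19.5%, 19.1% and 19.0% of the sum in shCtrl replicates 1, 2 and 3 and 17.7%, 17.7% and 17% in shRBM39. Its share was lower in every knockdown library, by 1.76 percentage points on average. CCT2 took 5.59%, 5.42% and 5.54% in shCtrl and 5.90%, 6.05% and 6.09% in shRBM39, and its share was higher in every knockdown library. The share of TCP1 was also higher in each, at 4.57%, 4.95% and 4.86% against 5.24%, 5.05% and 5.15%.

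For these 3 subunits the exact two-sided permutation p was 0.1 each, the smallest that 3 against 3 libraries can give, before any adjustment for the 8 shares compared. The shares of CCT4, CCT5, CCT6A, CCT7 and CCT8 overlapped between the groups, with exact permutation p from 0.2 to 0.6 in the same design. CCT7 kept the largest share in each library, 23.6% to 23.9% in shCtrl and 23.9% to 25.3% in shRBM39. CCT8 ran from 11.7% in shRBM39 replicate 1 to 13.3% in shRBM39 replicate 3, a range wider than that of the controls, 12.7% to 13.1%. The count of subunits with shares apart was 3. It was 6 without shCtrl replicate 1 and 5 without shRBM39 replicate 3. Leaving out a library could only keep or raise this count, because a share depends on its own library alone. The higher counts are therefore no test of it.

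**Figure D3:**
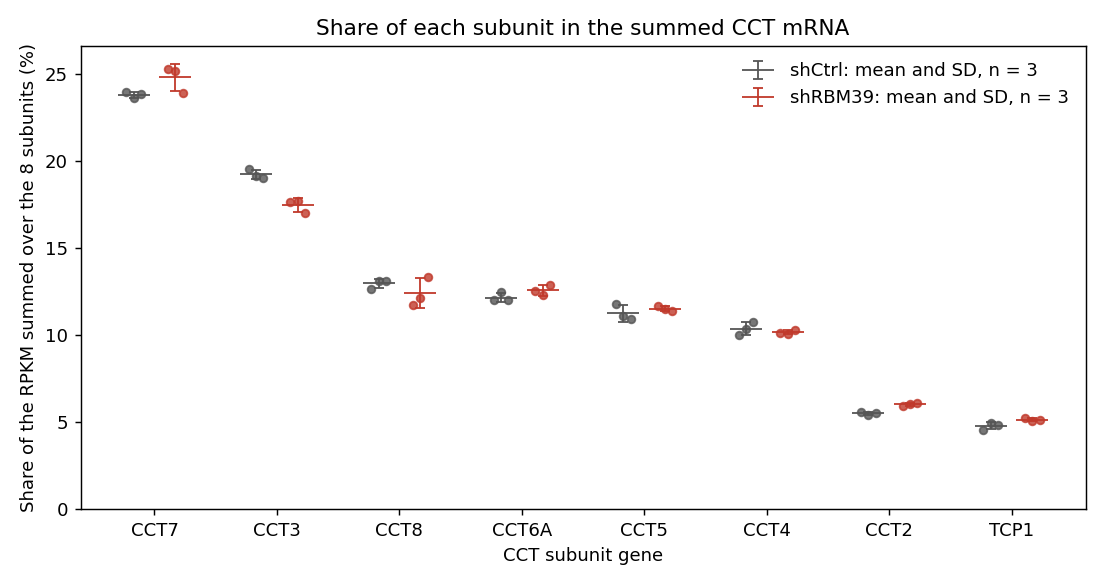
Share of each CCT subunit in the RPKM summed over the 8 subunits of the same library, in percent, for 3 shCtrl (grey) and 3 shRBM39 (red) libraries, with the group mean and SD. The red points of CCT3 lie below its grey points, those of CCT2 and TCP1 lie above, and the other 5 subunits overlap.

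Within the knockdown group, 7 of the 8 subunits were above their own group mean in shRBM39 replicate 3 and none in shRBM39 replicate 1, where 49.1% and 49.2% of all tested genes were above theirs. Among the 884 abundant genes these shares were 46.3% and 39.1%. One of the 7, CCT3, lay at its mean, and CCT8 deviated most, by 0.15 and -0.12 on the log2 scale. The mean deviation over the 8 was 0.05 and -0.04 in these libraries, and 0.03 and -0.03 without CCT8. In shCtrl 2 to 5 of the 8 were above their mean in a library. Over the 6 libraries, the log2 CPM of each subunit had a Pearson correlation of 0.966 (CCT8) to 0.998 (CCT2) with the mean of the other 7, a description in which the group difference carries most of the spread.

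The genes whose profile over the 6 libraries was most like the mean of the 8 subunits were HSPE1-MOB4, HSPE1, HMGB1, HMGB1P5 and MRPL47. HSPE1 encodes the mitochondrial co-chaperonin, HMGB1 a chromatin protein and MRPL47 a protein of the mitochondrial ribosome. Their Pearson correlations of log2 CPM with the mean of the subunits were all above 0.999, over 6 libraries and among 7104 genes with at least 20 CPM. This likeness was common, since 2017 of these genes had a correlation over 0.95. HSPE1-MOB4 shares 192 exon bases with HSPE1, and HMGB1P5 is by its name a pseudogene of HMGB1, so neither pair is a pair of separate observations.

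A look at the sequence relatives of the subunits came next, because reads can be shared between near-identical copies. Of 12 pseudogene symbols of the 8 genes, 4 had enough counts to be tested. CCT6P1 and CCT6P3, which carry copies of CCT6A sequence, had 101 to 150 and 55 to 82 counts in a library, against 6126 to 9320 for CCT6A. Neither was called, at log2 fold changes of -0.17 and -0.28 (edgeR adjusted p 0.194 and 0.108), but both were called lower under library totals alone, at -0.29 and -0.40 (edgeR adjusted p 0.0244 and 0.0201). CCT8P1 was not called at -0.52 (edgeR adjusted p 0.185). CCT7P2 was called lower at -0.44 with an edgeR adjusted p of 0.0488, but the call was lost under DESeq2 (adjusted p 0.155) and without shCtrl replicate 2 (-0.29) or shRBM39 replicate 1 (-0.35) or 2 (-0.31), and its counts of 28 to 71 overlapped between the groups. CCT6B, the paralog of CCT6A known from testis, had 2 to 11 counts in a library and was not tested. How the counting treated reads that match several copies is not given in the sources used here.

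Genes whose annotated span overlaps a subunit gene, or that start within 1 kb of a subunit start, were examined in the same way, with 14 such neighbours in the table and 8 of them tested. Of the 8 subunit genes, 5 had a gene on the opposite strand that starts at most 182 bases from their own start. A start here is the outermost annotated exon edge of the counted gene. The RefSeq promoter windows of CCT5 (chr5:10250287-10250586) and CCT7 (chr2:73234058-73234357) lay inside the counted spans, so these 2 distances depend on the annotation used. MRPL18, a gene of the mitochondrial ribosome that starts 63 bases from TCP1, rose by 0.57 ± 0.05 log2 units (SE; edgeR adjusted p 9.1e-12). PSPH, the last enzyme of serine synthesis, starts 26 bases from CCT6A and fell by 0.29 on the log2 scale (SE 0.05; edgeR adjusted p 1.69e-05) while CCT6A rose. PSPH had 1092, 1250 and 1178 counts in shCtrl and 877, 889 and 852 in shRBM39, and the groups did not overlap in either gene of this divergent pair. FAM173B, 24 bases from CCT5, rose by 1.26 on the log2 scale from 39 to 46 counts to 85 to 99 counts (edgeR adjusted p 9.96e-09).

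The other 2 divergent partners gave weaker calls. COMMD1, which starts 80 bases from CCT4, was called higher at 0.28 (edgeR adjusted p 0.01) and PRADC1, 182 bases from CCT7, at 0.41 (edgeR adjusted p 0.0276), and both calls were lost under library totals alone, at 0.15 and 0.29. The PRADC1 call was also lost under DESeq2 and without any 1 of shCtrl replicate 2 or shRBM39 replicates 2 and 3 (0.37 to 0.40), and the COMMD1 call without shRBM39 replicate 3 (0.22). COMMD1 overlaps CCT4 near the start and shares 81 exon bases with it. Its 172 to 230 counts were few beside the 3719 to 5392 of CCT4, so its counts are uncertain. Overlap at the far ends leaves some other counts uncertain. The cholesterol gene ACAT2 runs toward TCP1 from the opposite strand and shares 397 bases of exon with it, and it rose by 0.77 on the log2 scale (edgeR adjusted p 3.85e-15). The antisense symbol CTD-2256P15.4 shares 1757 exon bases with CCT5 and was higher by 0.74 (edgeR adjusted p 3.46e-10). AC107081.5, antisense to CCT4 with 275 shared exon bases, was higher by 0.40 (edgeR adjusted p 0.00736), a call lost without shRBM39 replicate 3, at 0.22, and under library totals alone, at 0.27. The library kit is stranded, but the strand setting of the counting is not given in the sources used here. At 238 to 411 counts, CTD-2256P15.4 was small beside the 8320 to 12293 counts of CCT5.

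The wider folding pathway was then read from lists of cofactors and clients, each to be set beside the 29.2% of all tested genes called higher and 29.9% called lower (59.2% higher among the 884 abundant genes). Of the 6 prefoldin subunits, which carry unfolded actin and tubulin to CCT, 4 were called higher and none lower, against 29.2% of all tested genes called higher, with a median log2 fold change of 0.43. The largest rises were PFDN1 at 0.57, VBP1 at 0.56 and PFDN6 at 0.48 (edgeR adjusted p from 4.31e-12 to 2.74e-13 for PFDN6 and PFDN1, and 3.26e-10 for VBP1). PFDN2 and PFDN4 were not called, at 0.04 and 0.09, and their values turned negative when only library totals were used for scaling (-0.08 and -0.03). With a library left out they could be called higher. This held for PFDN2 without shCtrl replicate 1 (0.10), and for PFDN4 without shCtrl replicate 3 or shRBM39 replicate 1 (0.15 each). Among 3 prefoldin-like proteins, PDRG1 rose by 0.63 (edgeR adjusted p 6.08e-14). UXT was called higher at 0.15 (edgeR adjusted p 0.00881), a call lost under library totals alone, without shCtrl replicate 2 (0.12) and without shRBM39 replicate 3 (0.09). URI1 was called lower at -0.14 (edgeR adjusted p 0.00679), a call lost without shRBM39 replicate 1 or 2, at -0.12 and -0.11.

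The 3 phosducin-like cofactors that could be tested all rose. PDCL3 went from 45.7 ± 1.69 to 81.8 ± 0.849 CPM (SD, n = 3), or by 0.84 on the log2 scale (edgeR adjusted p 1.5e-17), which was above that of any subunit. TXNDC9 rose by 0.74 and PDCL by 0.37 (edgeR adjusted p 2.46e-08 and 1.75e-08), and the testis gene PDCL2 had at most 1 count. Of 6 tubulin folding cofactors, 5 were called higher (29.2% of all tested genes were), with small differences, led by TBCA at 0.28, ARL2 at 0.27 and TBCD at 0.26 (edgeR adjusted p 4.28e-07, 2.01e-05 and 2.2e-05). The median of these 6 was 0.25. The call of TBCD was lost in the limma-trend fits of RPKM, at 0.13 and 0.11 with pseudocounts of 0.1 and 1 (adjusted p 0.113 and 0.12). TBCC was not called, at -0.05, but was called lower under library totals alone (-0.18), where TBCE lost its call (0.14 with TMM and 0.01 without).

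Of 14 actin and tubulin genes, the main clients of the chamber, 13 were called higher and 1 lower, with a median log2 fold change of 0.66. The shares over all tested genes were 29.2% higher and 29.9% lower, and 59.2% of the 884 abundant genes were called higher. TUBB3 rose by 1.15, TUBB4B by 1.11 and TUBB by 0.96 (edgeR adjusted p 1.34e-19, 2.25e-22 and 8.31e-21). TUBB4B, an abundant beta tubulin, went from 296 ± 16.5 to 639 ± 3.7 CPM (SD, n = 3). TUBB2B fell, from 29.0 ± 1.92 to 15.2 ± 1.83 CPM, which is -0.93 in log2 units (edgeR adjusted p 5.32e-13). Actins and tubulins are close paralogs with many pseudogenes, and the split of reads among them is uncertain.

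Of 10 clients outside the cytoskeleton, 4 were called higher, 2 lower and 4 not called, counts near the shares of 29.2% higher and 29.9% lower over all tested genes. The mitotic regulators PLK1 and CDC20 rose by 0.57 and 0.44, and the telomerase factor WRAP53 by 0.26 (edgeR adjusted p 2.17e-14, 2.58e-10 and 0.00087), the last losing its call under library totals alone (0.14). RPTOR, also called higher at 0.15 (edgeR adjusted p 0.00536), lost its call under library totals alone as well (0.03). The G protein beta subunit GNB1 fell by 0.73 and the tumour suppressor VHL by 0.25 on the log2 scale (edgeR adjusted p 8.23e-09 and 6.01e-06). GNB1 had 13313 and 13466 counts in shCtrl replicates 1 and 2 but 8048 in replicate 3, and its knockdown counts were 5808 to 6720.

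CCT was also set beside the other chaperonins. In mitochondria the chamber is built from HSPD1 and capped by HSPE1, and both rose. HSPD1 went from 1221 ± 21.6 to 1668 ± 47 CPM (SD, n = 3), or by 0.45 on the log2 scale (edgeR adjusted p 8.84e-13), inside the range of the CCT subunits, and HSPE1 rose by 1.22 (edgeR adjusted p 1.4e-22), above each of them. MKKS, BBS10 and BBS12, chaperonin-like proteins that assemble the BBSome of the cilium, were not called, their log2 differences being -0.01, -0.23 and -0.32 (edgeR adjusted p 0.886, 0.119 and 0.402). MKKS and BBS10 were called lower under library totals alone, at -0.13 and -0.35. BBS10 was also called lower without shRBM39 replicate 2, at -0.32 (edgeR adjusted p 0.0489). Without shCtrl replicate 3 the value of BBS12 changed sign, to 0.13. BBS12 had only 12 to 30 counts in a library, which limits what could be seen.

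**Figure D4:**
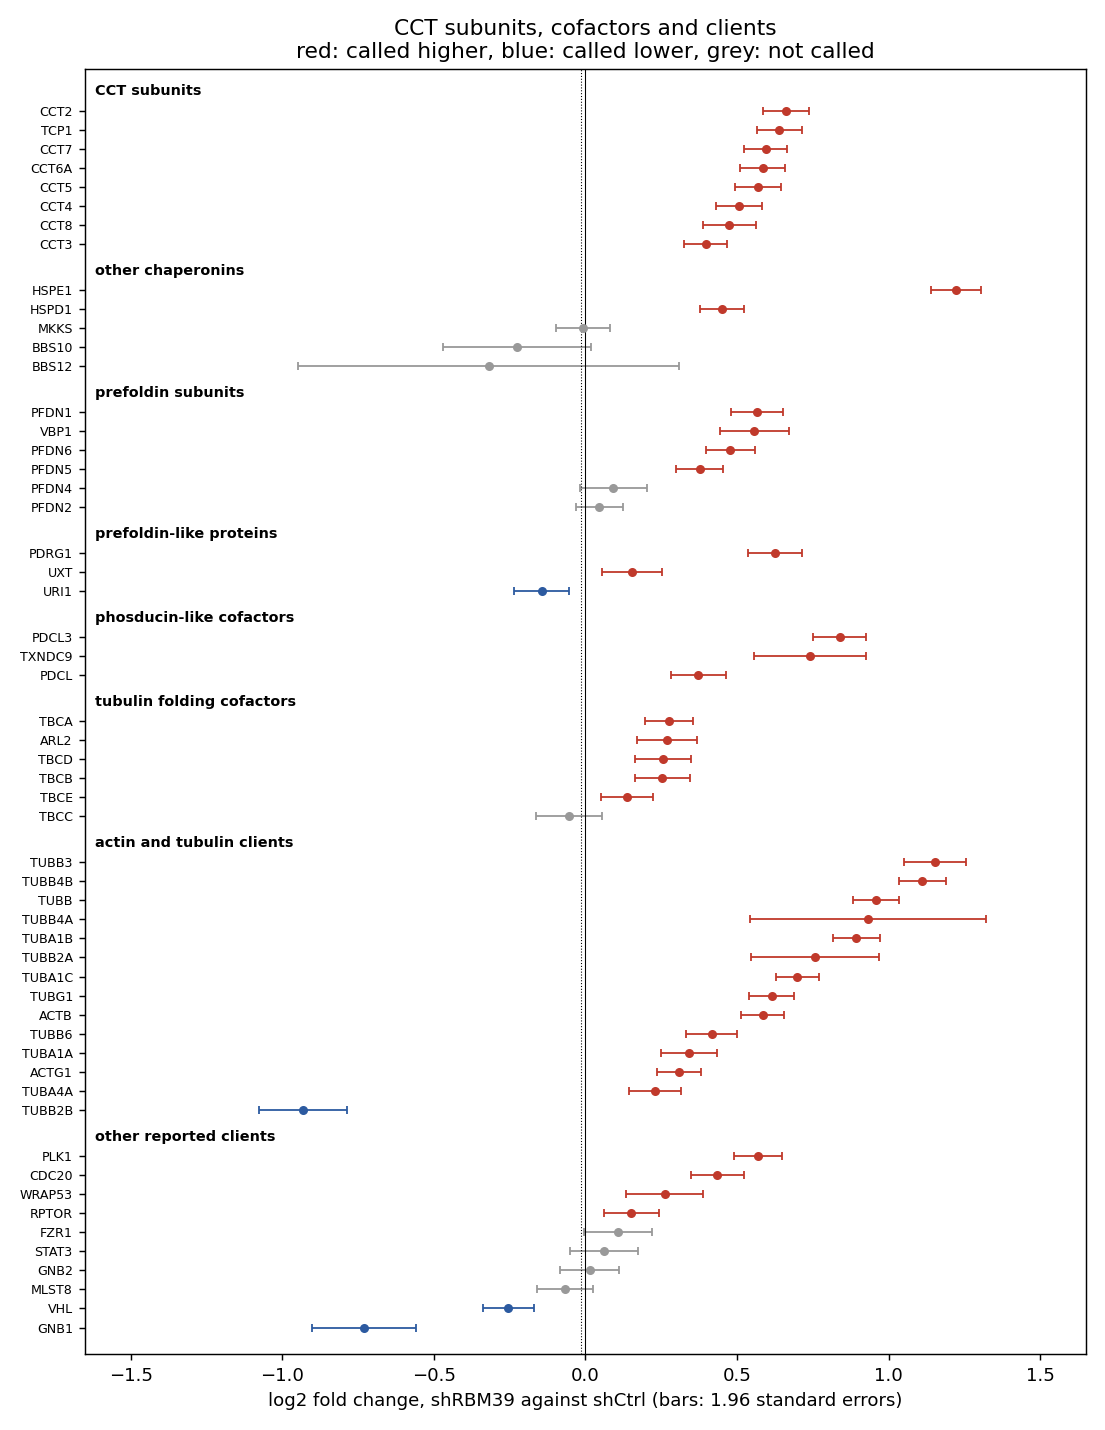
Log2 fold change of shRBM39 against shCtrl (horizontal axis) for each tested gene of the CCT subunit list and 7 lists of cofactors, clients and relatives, with 95% intervals as bars; red genes were called higher, blue lower and grey not called, and the dotted line is the median of all tested genes. The 8 subunits lie between 0.40 and 0.66, the actin and tubulin list lies to the right apart from TUBB2B, and the other clients lie on both sides of 0.

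The splicing table of the study, made with rMATS, was searched for the 8 genes, since the study asked which exons depend on RBM39. Of its 1582 records, 1 belonged to a CCT gene. It was exon 4 of 12 of CCT7 (chr2:73243004-73243129, GRCh38), a coding exon of 126 bases, a whole number of codons. Reads that included it numbered 3, 4 and 2 in group 1 and 2, 2 and 2 in group 2, and reads that skipped it 1, 4 and 2 against 1, 0 and 0. Exon inclusion was listed at 0.604, 0.337 and 0.337 for the libraries of group 1, and for those of group 2 at 0.504, 1.0 and 1.0. These levels overlapped between the groups and rested on 2 to 8 reads each, while CCT7 as a gene had at least 11194 counts in every library. Neither group is named as the knockdown there, and only selected events are listed, so a difference in CCT splicing was not detectable from it at this depth.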

How the data were processed

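mRNA of SW480 cells was sequenced in 6 libraries, 3 shCtrl and 3 shRBM39, grouped by sample title; columns named NC were read as shCtrl, the only control. Deposited by the authors were raw counts for each symbol (total 18042924 to 20428901 per library) and RPKM. Per the labels, the submitters' notes name Trimmomatic 0.36, STAR 2.5.3a, featureCounts of Subread 1.5.1 and edgeR 3.12.1 on GRCh38; the annotation release and the handling of strand, multi-mapped reads and unique identifiers are not given in the sources used here. Of 704 exons listed for the 8 genes, 693 were identical to GENCODE v44. No pair of replicates agreed within sampling noise (chi-square per degree of freedom 2.11 to 4.21).

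Counts were fitted in edgeR 4.0.16 (R 4.3.3) with filterByExpr, TMM, a 2-group design and p-values adjusted by Benjamini-Hochberg over 18243 genes at 0.05; standard errors came from the F statistic. The members and lists were chosen with earlier results of these data known. All 8 members were named, and from each list up to 3 called genes per direction, all tested genes of short lists, gene neighbours within 1 kb, and the 5 most similar profiles. Further list members (PFDN2, PFDN4, TBCC, TBCE, RPTOR, the CCT6B and PDCL2 counts, MKKS, BBS10 and BBS12) were added after their values were seen. GC content for an added correction came from the reference genome for 99.9% of genes. The edgeR fit and the GC correction were run on simulated data in which few genes changed, up or down at random. Far more genes were called in these data, so the scaling under such wide change was not tested. Alternatives used DESeq2 1.42.0 and limma 3.58.1. The p-values, FDR and differences in the authors' rMATS table were not used, contrary to the first plan; its reads and inclusion levels were copied.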

Additional observations from a re-analysis of the deposited data

How the results depend on the processing

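All 8 subunits kept their direction and their call in each of 16 alternatives, 128 values in all, with the highest adjusted p 0.00227 (CCT8). The median log2 fold change of 0.58 was 0.54 under upper-quartile scaling, 0.45 under library totals alone, 0.449 in limma-trend fits of RPKM with a pseudocount of 1 and 0.453 with 0.1, and 0.556 to 0.605 with 1 library left out. A correction for GC content and length, added after the data were seen, gave 0.56. The log2 ratio of the summed level, 0.54, was 0.507 under upper-quartile scaling, 0.417 under library totals alone and 0.413 from summed RPKM, and 0.522 to 0.557 with 1 library left out. The count of subunits with shares apart, 3, ran from 3 to 6 with 1 library left out, where it could only stay or rise. Per kilobase of the canonical transcript, a length added after the data were seen, this count was 4. No CCT splicing record was left (0 of 1) at 20 or more reads in every library, and the FDR part of that alternative was not run. Of the genes in the lists of other chaperonins, cofactors and clients, 37 were called in either direction, and from 27 (a test of changes beyond 0.2 on the log2 scale, which asks for more) to 39 under the alternatives. Over all 18243 tested genes, the main fit called 29.2% higher and 29.9% lower. All genes called higher numbered 5327, and 3530 and 3535 in the RPKM fits with pseudocounts of 1 and 0.1 (33.6% of their calls in each) and 3511 in the test beyond 0.2.

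Replicate numbers are shared between the groups but did not pair the libraries: the correlations of deviations of same-numbered libraries were 0.0061, -0.028 and 0.00011. With a replicate block, 8 subunits and 37 list genes (either direction) were called and the median was 0.58. Over all genes, 5340 were then called higher and 5470 lower. CCT7P2 lost its call in this edgeR fit (adjusted p 0.0505). Counts were low for BBS12 (12 to 30 in a library), PRADC1 (50 to 67) and the CCT7 exon (2 to 8 reads).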
